A study of Homo sapiens with 8 samples.

Results

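The WNT set examined here comprised 56 listed genes of the 57500 in the raw count table, found by matching Ensembl identifiers to GENCODE symbols, and all 56 were found. They were 15 WNT ligands, 16 receptors and co-receptors, 11 secreted antagonists, 8 target and feedback genes, 4 genes of signal transduction and 2 genes of ligand secretion. The genes were listed by function, with earlier results of these data known, and the rule itself sets no threshold on a measured value. RNAseq had been performed on 8 libraries of HEK293T cells, a transformed human embryonic kidney line expressing SV40 large T antigen. In 4 libraries the cells had received 100 µM DZNep (3-deazaneplanocin A, an adenosine analog that inhibits adenosylhomocysteinase) for 48 h, and in the 4 Control libraries they had received vehicle for the same time. The methods describe the 4 samples of a group as biological replicates, all cells were of the same line, and no genetic change separated the groups. The question of the comparison was which genes change in transcript level upon DZNep treatment.

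WNT proteins are secreted, lipid-modified ligands. In the canonical branch they bind a frizzled receptor together with the co-receptor LRP5 or LRP6, which stops the AXIN-containing destruction complex from marking β-catenin (CTNNB1) for degradation, and β-catenin then enters the nucleus and acts with TCF/LEF factors on target genes. Several of those targets, such as AXIN2, NKD1, RNF43 and ZNRF3, feed back to dampen the pathway, and secreted antagonists of the DKK, SFRP and WIF families act outside the cell on the co-receptor or on the ligand itself. Other ligands, WNT5A among them, mostly act through β-catenin-independent branches with receptors such as ROR1, ROR2 and RYK.

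Promoter sequences are printed for the 4 members with the largest fold changes (NKD2, FRZB, LRP5 and WNT3A) and for the antagonists DKK1 and WIF1, so that the DNA around the starts of higher and lower genes can be read beside the counts. RefSeq's promoter windows (GRCh38.p14, 250 bases before to 50 after the start, 300 in all) held an entry for 38 of the 56 members and 47 windows in all. Capitals mark matches to the TCF/LEF core, searched on both strands as CTTTGNN where each N is A or T, and each sequence reads 5′ to 3′ on the strand of its gene. The first 3 belong to antagonists that were higher in DZNep libraries.
FRZB, chr2:182866588-182866887, minus strand: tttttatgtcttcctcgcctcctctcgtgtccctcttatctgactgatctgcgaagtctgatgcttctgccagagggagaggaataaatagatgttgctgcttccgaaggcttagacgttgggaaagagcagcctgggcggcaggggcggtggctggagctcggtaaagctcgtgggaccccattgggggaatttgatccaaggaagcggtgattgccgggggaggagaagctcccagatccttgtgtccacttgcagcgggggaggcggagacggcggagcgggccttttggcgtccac
DKK1, chr10:52314031-52314330, plus strand: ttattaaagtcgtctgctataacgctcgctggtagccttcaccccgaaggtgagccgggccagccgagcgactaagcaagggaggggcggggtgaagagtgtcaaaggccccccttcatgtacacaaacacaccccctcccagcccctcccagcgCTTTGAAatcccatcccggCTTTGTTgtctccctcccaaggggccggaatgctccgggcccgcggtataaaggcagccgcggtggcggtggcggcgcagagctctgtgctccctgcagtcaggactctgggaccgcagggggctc
WIF1, chr12:65121256-65121555, minus strand: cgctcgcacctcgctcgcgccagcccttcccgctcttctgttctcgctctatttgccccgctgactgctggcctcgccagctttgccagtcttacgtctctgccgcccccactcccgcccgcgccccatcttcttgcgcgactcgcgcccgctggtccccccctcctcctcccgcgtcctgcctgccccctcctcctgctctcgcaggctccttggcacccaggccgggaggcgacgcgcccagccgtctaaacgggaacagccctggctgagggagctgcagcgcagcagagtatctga
The next 3 belong to a feedback inhibitor, a co-receptor and a ligand that were lower.
NKD2, chr5:1008552-1008851, plus strand: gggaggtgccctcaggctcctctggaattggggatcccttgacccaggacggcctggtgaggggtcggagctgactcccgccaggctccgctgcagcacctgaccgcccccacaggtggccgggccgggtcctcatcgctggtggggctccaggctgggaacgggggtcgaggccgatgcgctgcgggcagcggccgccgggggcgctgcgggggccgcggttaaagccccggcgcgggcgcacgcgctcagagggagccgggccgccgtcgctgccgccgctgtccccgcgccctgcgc
LRP5, chr11:68312341-68312640, plus strand: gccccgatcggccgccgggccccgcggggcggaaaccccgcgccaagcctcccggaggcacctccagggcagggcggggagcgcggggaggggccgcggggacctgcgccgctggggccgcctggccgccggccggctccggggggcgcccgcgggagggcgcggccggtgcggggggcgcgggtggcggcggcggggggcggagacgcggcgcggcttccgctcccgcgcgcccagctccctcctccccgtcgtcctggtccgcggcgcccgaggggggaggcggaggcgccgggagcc
WNT3A, chr1:228006748-228007047, plus strand: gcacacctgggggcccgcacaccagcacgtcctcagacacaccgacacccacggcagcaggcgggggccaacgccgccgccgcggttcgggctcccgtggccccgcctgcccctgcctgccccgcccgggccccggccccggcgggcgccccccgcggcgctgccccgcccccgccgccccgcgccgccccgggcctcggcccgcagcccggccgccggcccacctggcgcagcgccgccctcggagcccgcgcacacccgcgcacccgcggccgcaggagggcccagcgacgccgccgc
The windows of the higher FRZB, DKK1 and WIF1 had a GC content of 58.3%, 63.7% and 69.7%, and those of the lower NKD2, LRP5 and WNT3A had 77.0%, 86.7% and 86.0%. SFRP4, also higher, had 66.3%. Of the other lower members, WNT4 had 85.7% and SFRP5 had 77.3%, but the 2 windows of WNT5B had 51.7% and 52.0%. WNT11 and LGR5 had no entry. A window was held for only 67.4% of the genes tested and 38 of the 56 members, too few for a check of GC content, which is void, and these values describe the windows alone. Among tested genes that had one, the median GC content of the first window was 65.0%, with 60.3% for those called higher and 67.0% for those called lower. Over all windows, not the first alone, the median was 67.0% for the 47 member windows and 58.7% for all 35114 promoters. A TCF/LEF core was present in 4 member windows (8.5%, against 13.8% of all 35114 promoters in the table), and the DKK1 window held 2 of them. TATAAA on either strand was present in 4 member windows (8.5%, against 11.5%), DKK1 among them. These are letter matches, and no occupancy or methylation of these windows was measured here.

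Library totals ranged from 25043058 to 44902779 counts, so that 0 counts in the shallowest library allow a share of up to 1.2e-05% of its total, and intervals and limits of this kind cover counting error only. Mitochondrial transcripts took 7.76%, 3.02%, 3.16% and 13.7% of the counts in Control replicates 1 to 4 and 7.04%, 4.25%, 4.44% and 10.1% in DZNep replicates 1 to 4. Replicates 1 and 4 thus had the higher share in both groups. Embryonic kidney markers were mixed: PAX2, LHX1, SIX2, WT1 and EYA1 had at least 106 counts in every library, while PAX8 had at most 8. LHX1 and PAX2 were lower (log2 fold changes -1.43 and -0.54, edgeR adjusted p = 0.00593 and 0.0228), EYA1 was higher (0.84, adjusted p = 0.0046), and SIX2 and WT1 did not pass. Summed normalized counts of 4 epithelial markers were 2053 to 4049 in Control and 5710 to 9045 in DZNep libraries, those of 3 mesenchymal markers were 30234 to 42962 and 34046 to 40602, those of 3 neuronal markers were 7505 to 12413 and 7512 to 8389, and those of 5 leukocyte markers were 192 to 390 and 321 to 556, with CD3E at 0 in all Control libraries and at 9 to 36 counts in DZNep libraries. Whether these shifts bear on the WNT genes was not tested.

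Normalized counts are the deposited counts divided by 1 size factor per library. A gene was called when edgeR's quasi-likelihood test gave a Benjamini-Hochberg adjusted p under 0.05 over all 19171 genes tested and the log2 fold change (DZNep against Control) was above 1 or below -1. Of the 56 members, 52 had enough counts to be tested and 12 were called. Of those called, 4 rose in DZNep-treated cells, and all of them were secreted antagonists (FRZB, DKK1, SFRP4 and WIF1). A further 8 fell, and these were the ligands WNT3A, WNT4, WNT5B and WNT11, the co-receptor LRP5, the antagonist SFRP5, the feedback inhibitor NKD2 and the R-spondin receptor LGR5. Over all genes tested 10.6% were called higher and 13.5% lower (24.2% in either direction), so 4 and 8 of 52 members are close to what the whole transcriptome showed. In a bulk sample, a lower count in each cell cannot be told apart from fewer cells that express the gene.

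Without the fold threshold, 12 members were higher and 17 lower at an adjusted p under 0.05, and 23 did not pass (all genes: 19.1% higher and 21.8% lower). The groups did not overlap for 23 members, of which 8 were higher and 15 lower in the DZNep libraries, against 19.5% and 19.4% of all genes tested. The median log2 fold change was -0.21 over the 52 members and -0.03 over all genes, and the members ranged from -4.09 (NKD2) to 3.63 (FRZB). By role, the median was -0.89 for 12 ligands, -0.17 for 16 receptors, 0.83 for 10 antagonists, -0.22 for 8 target genes and 0.21 for 4 transduction genes. These medians describe the tested members alone. The filter keeps a gene that reaches 0.247 CPM (counts per 1e6 counts) in at least 4 libraries, and all 8 libraries reached that level for 46 of the 52. For WNT3A, WNT4 and WNT7B all Control but not all DZNep libraries reached it, for FRZB and DKK2 all DZNep but not all Control libraries did, and for SFRP5 3 Control libraries and 1 DZNep library did.

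**Figure D1:**
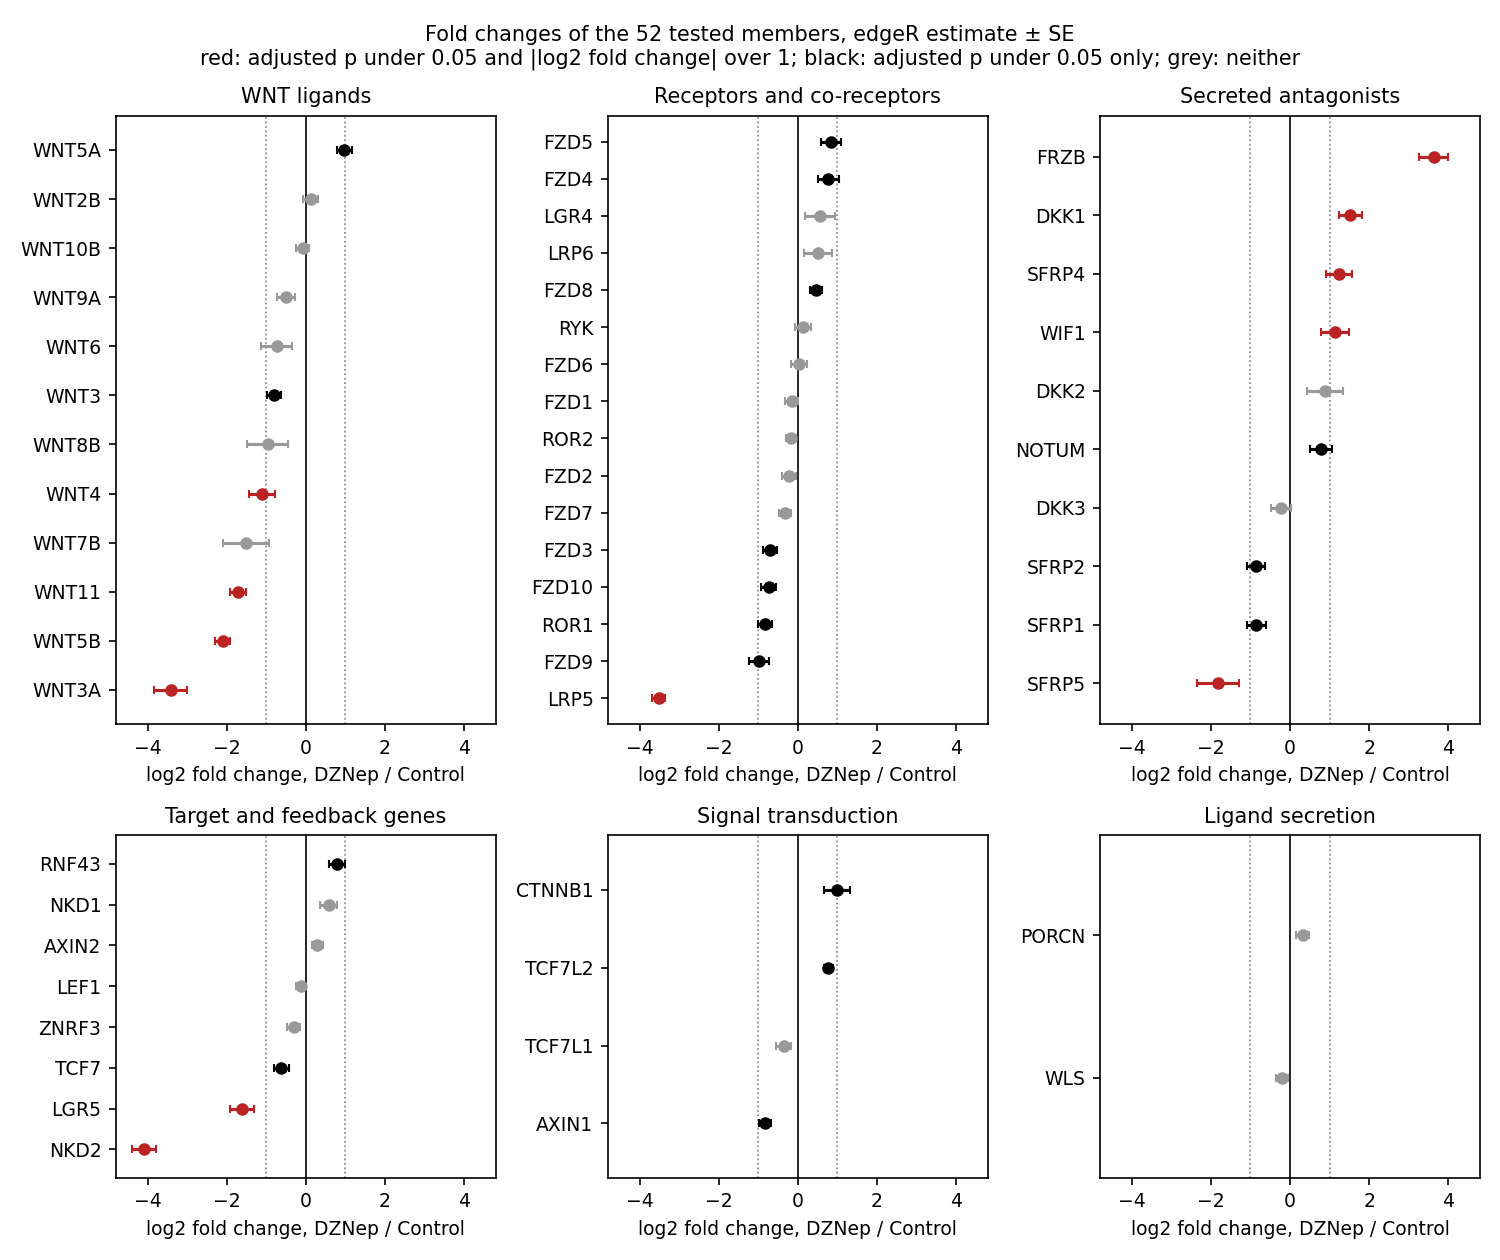
Log2 fold changes (DZNep against Control, x axis) with their standard errors for the 52 tested members, 1 panel per role, with called members in red, members past the adjusted p alone in black and the rest in grey. The 4 red points right of 1 are all in the antagonist panel, from 1.14 (WIF1) to 3.63 (FRZB), and the red points left of -1 are spread over 4 panels.

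Of 12 tested ligands among the members, 4 were called lower and 0 higher (all genes: 13.5% and 10.6%). WNT5A, described after them, was higher without reaching the fold threshold. Outside the member list, the ligands WNT2 and WNT16 were called higher. WNT3A (ENSG00000154342, chr1:228006998-228061271, plus strand), a ligand of the canonical branch, held 102, 76.8, 80.6 and 127 normalized counts in Control replicates 1 to 4 and 10.9, 4.83, 15.5 and 4.5 in DZNep replicates 1 to 4. Every DZNep library lay far below every Control library, and the DZNep values rest on 4 to 18 raw counts. The log2 fold change was -3.42 (SE 0.41, edgeR adjusted p = 0.000153). WNT5B (ENSG00000111186, chr12:1529891-1647212, plus strand), a close relative of WNT5A, had 595, 372, 468 and 539 in Control and 120, 99.9, 128 and 120 in DZNep libraries. WNT11 (ENSG00000085741, chr11:76186325-76210736, minus strand), known for its role in cell movements and kidney branching, had 356, 236, 322 and 359 in Control and 90.7, 93.4, 116 and 92.2 in DZNep libraries. For both genes the groups were well apart and the DZNep libraries close to each other, with log2 fold changes of -2.10 (SE 0.19) for WNT5B (edgeR adjusted p = 3.6e-05) and -1.72 (SE 0.20) for WNT11 (edgeR adjusted p = 0.000118). WNT4 (ENSG00000162552, chr1:22117313-22143969, minus strand), required for the formation of kidney tubules, was scarce, with 20, 23.2, 22.4 and 21.5 in Control and 7.26, 8.05, 14.7 and 11.2 in DZNep libraries. Its groups did not overlap, but the fold was near the threshold (log2 fold change -1.10, SE 0.33, edgeR adjusted p = 0.0206), and the call was lost without DZNep replicate 1 (adjusted p = 0.0846) or 2 (adjusted p = 0.0636) and with no filter on low counts (adjusted p = 0.0887). WNT4 and WNT11 share exonic positions with a lncRNA on the opposite strand, and the strandedness of the counting is not given in the sources used here. The lncRNA opposite WNT11 had at most 10 counts in a library. Of the kidney markers, LHX1 and PAX2 were also lower, EYA1 was higher, and SIX2 and WT1 did not pass. Whether these values bear on WNT4 or WNT11 was not tested.

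Of the tested member ligands, WNT5A was the most abundant per length of exon and alone was higher at an adjusted p under 0.05. It held 1184, 1748, 1293 and 1195 normalized counts in Control and 2525, 3051, 3149 and 2053 in DZNep libraries. The groups did not overlap, and the log2 fold change of 0.97 (SE 0.19, edgeR adjusted p = 0.00255) stood just under the fold threshold. It was past both thresholds without Control replicate 2 (1.11), DZNep replicate 1 (1.01) or DZNep replicate 4 (1.08), and with library sizes alone as the normalization (1.05). WNT3, another canonical ligand, differed by a log2 fold change of -0.81 (SE 0.18, edgeR adjusted p = 0.0059), from 285 ± 41.8 to 166 ± 25.3 (SD, n = 4) normalized counts. The other 6 tested ligands did not pass. WNT10B, WNT2B and WNT9A differed by -0.08, 0.13 and -0.50 with means of at most 249 normalized counts, and WNT6, WNT8B and WNT7B by -0.74, -0.96 and -1.51 with means of 6.88 to 42.7. The WNT2B value is uncertain, as the gene shares exonic positions with ST7L on the opposite strand, which had up to 1473 counts in a library. WNT7B missed the adjusted p (0.065) and passed both thresholds with the replicate number as a block (log2 fold change -1.69, adjusted p = 0.0115). WNT1, WNT7A and WNT10A were too low to test, with at most 1, 3 and 28 counts in a library.

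Among 16 receptors and co-receptors 1 was called lower and 0 higher (all genes: 13.5% and 10.6%). The 1 called had the lowest p-value of all members. LRP5 (ENSG00000162337, chr11:68312591-68449275, plus strand), a co-receptor of the canonical branch, held 3288, 3860, 4064 and 3842 normalized counts in Control and 336, 290, 416 and 290 in DZNep libraries. The groups were far apart, and the spread within each of them was small. The mean went from 3763 ± 332 to 333 ± 59.5 (SD, n = 4), a log2 fold change of -3.52 (SE 0.17, edgeR adjusted p = 2.27e-06). The related locus LRP5L, whose sequence resembles part of LRP5, had 78 to 196 counts in all libraries and a log2 fold change of -0.21 (edgeR adjusted p = 0.62). LRP6, the other co-receptor, had 1364, 3063, 2181 and 1202 in Control and 2256, 4091, 3394 and 1611 in DZNep libraries. The groups overlapped, with replicates 2 and 3 high and replicates 1 and 4 low in both, and the test did not pass (log2 fold change 0.51, SE 0.35, edgeR adjusted p = 0.268). LGR4, a receptor for R-spondins that strengthen WNT signals, had the same order of libraries, with 1034, 2802, 1878 and 888 in Control and 2316, 3349, 2902 and 1330 in DZNep libraries, and did not pass either (log2 fold change 0.56, SE 0.38, edgeR adjusted p = 0.272).

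No frizzled receptor was called, although 6 of the 10 had an adjusted p under 0.05 (all genes: 19.1% higher and 21.8% lower). FZD4, FZD5 and FZD8 were higher, by log2 fold changes of 0.77, 0.84 and 0.46 (edgeR adjusted p = 0.0413, 0.0217 and 0.0383). FZD3, FZD9 and FZD10 were lower, by log2 fold changes of -0.70, -0.99 and -0.74 (edgeR adjusted p = 0.0104, 0.0101 and 0.0104). FZD4 shares exonic positions with PRSS23 on the opposite strand, which itself had a log2 fold change of 1.11 (edgeR adjusted p = 0.000707), so the FZD4 value is uncertain. FZD1, FZD2, FZD6 and FZD7 did not pass, with log2 fold changes from -0.33 (FZD7) to 0.03 (FZD6), and the sign for FZD6 turned in 5 of the alternative fits. Among receptors of β-catenin-independent signalling, ROR1 went from 979 ± 206 to 561 ± 27.8 (SD, n = 4) normalized counts, with a log2 fold change of -0.83 (SE 0.17, edgeR adjusted p = 0.00322), while ROR2 and RYK did not pass (-0.18 and 0.13). Per length of exon, the frizzled genes together had 43.8 to 51.9 CPM per kb in Control and 42.0 to 52.1 in DZNep libraries, ranges that overlap almost entirely. LRP5 and LRP6 together had 17.7 to 24.5 and 5.27 to 11.5, ranges that do not overlap.

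**Figure D2:**
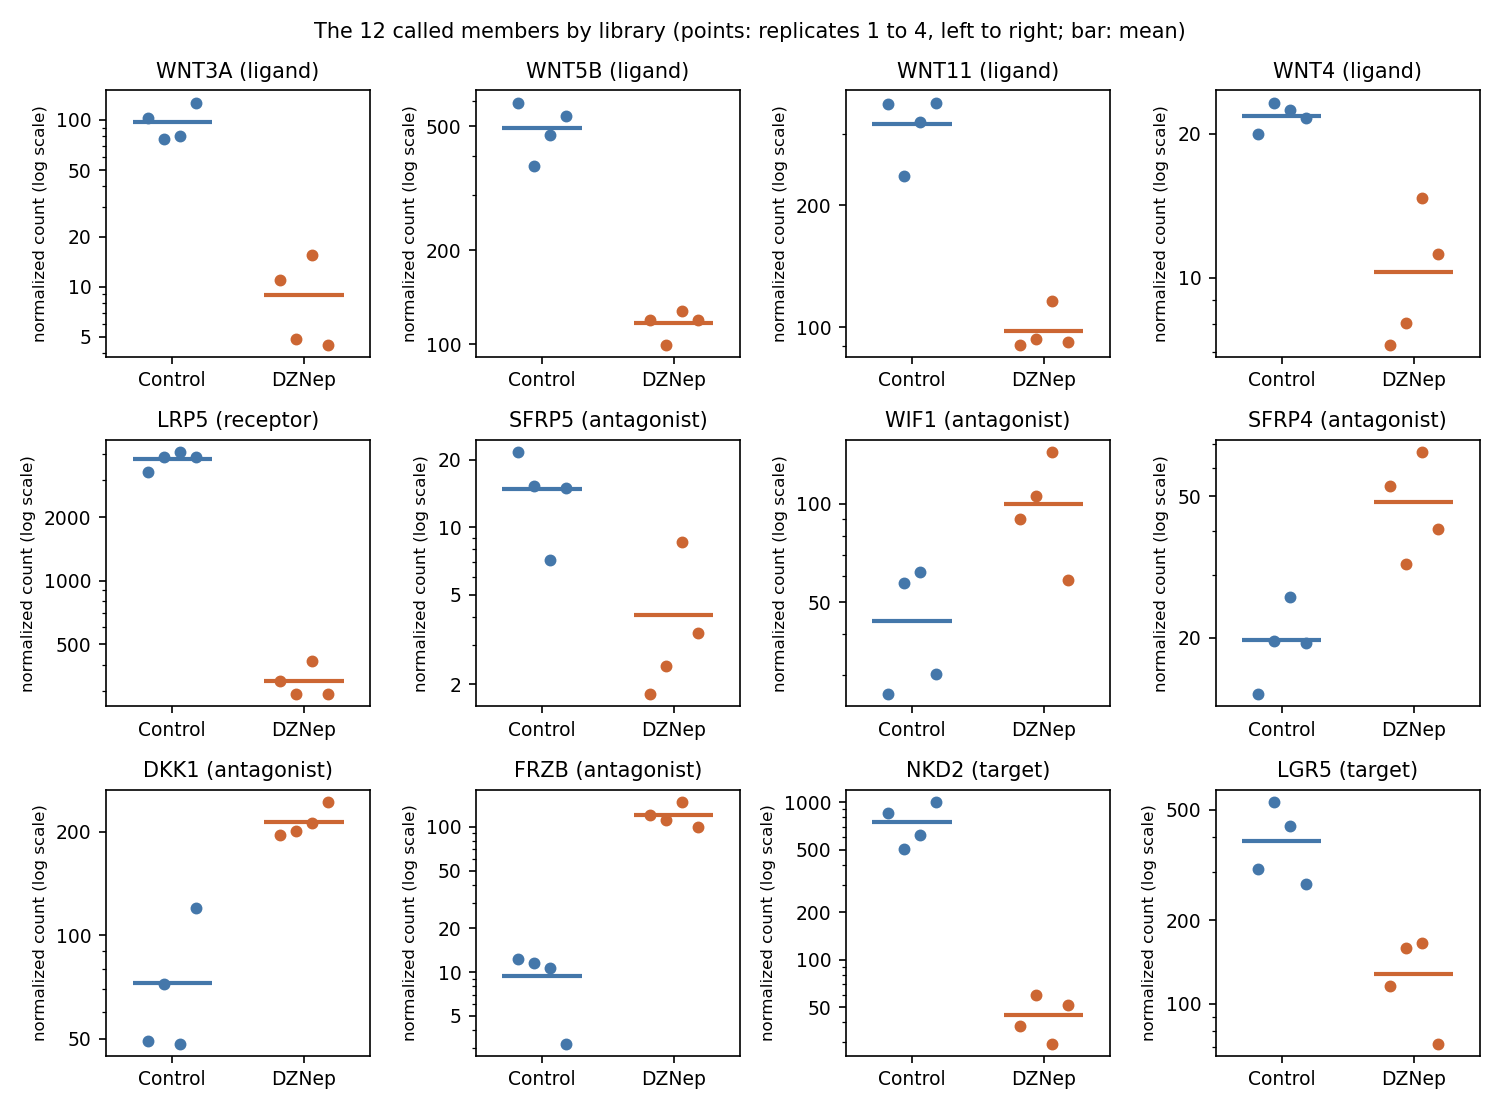
Normalized counts (log axis) of the 12 called members in each library, with Control in blue, DZNep in orange and a bar at each group mean (n = 4). The groups overlap for WIF1 and SFRP5 and are apart for the other 10, with the widest gaps for NKD2, LRP5 and FRZB.

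Among 10 tested secreted antagonists 4 were called higher and 1 lower (all genes: 10.6% and 13.5%), and these 4 were the only members called higher. At an adjusted p under 0.05, 5 antagonists were higher and 3 lower (all genes: 19.1% and 21.8%). FRZB (ENSG00000162998, chr2:182833275-182866637, minus strand), a secreted frizzled-related protein that binds WNT ligands, had 12.3, 11.6, 10.7 and 3.22 normalized counts in Control and 120, 111, 149 and 99 in DZNep libraries. It was barely counted in any Control library and was counted at a similar level in all 4 DZNep libraries, with a log2 fold change of 3.63 (SE 0.36, edgeR adjusted p = 5.74e-05). DKK1 (ENSG00000107984, chr10:52314281-52318042, plus strand), which binds LRP5 and LRP6, had 49.3, 72.3, 48.4 and 120 in Control and 196, 201, 212 and 245 in DZNep libraries. Control replicate 4 was the highest of its group and still lay below every DZNep library. The log2 fold change of DKK1 was 1.52 (SE 0.29, edgeR adjusted p = 0.00239), and the opposite-strand lncRNA PRKG1-AS1, with which it shares exonic positions, had at most 29 counts in a library.

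SFRP4 (ENSG00000106483, chr7:37905932-38025695, minus strand), of the same family as FRZB, had 13.9, 19.6, 26 and 19.3 in Control and 53.5, 32.2, 66.5 and 40.5 in DZNep libraries. The groups did not overlap, and the log2 fold change was 1.24 (SE 0.33, edgeR adjusted p = 0.0122). WIF1 (ENSG00000156076, chr12:65050626-65121305, minus strand), which binds WNT ligands directly, had 26.2, 57.1, 61.8 and 30.1 in Control and 89.8, 106, 144 and 58.5 in DZNep libraries. Here DZNep replicate 4 lay within the Control range, although each DZNep library exceeded the Control library of its number. The log2 fold change was 1.14 (SE 0.36, edgeR adjusted p = 0.0286), and the call was lost without Control replicate 1 (adjusted p = 0.0741) or 4 (0.0604), or without DZNep replicate 1 (0.0522), 2 (0.0631) or 3 (0.0956).

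SFRP5 (ENSG00000120057, chr10:97766751-97771999, minus strand) was the 1 antagonist called lower, with 21.6, 15.2, 7.17 and 15 in Control and 1.81, 2.42, 8.64 and 3.37 in DZNep libraries. The DZNep values rest on 2 to 10 raw counts, and DZNep replicate 3 lay above Control replicate 3. The log2 fold change was -1.82 (SE 0.54, edgeR adjusted p = 0.0217), and the call was lost without Control replicate 1 (adjusted p = 0.0569), DZNep replicate 1 (0.0732) or DZNep replicate 2 (0.0661). Without DZNep replicate 3 the log2 fold change of SFRP5 was -2.50. The most abundant antagonists were lower without reaching the fold threshold. SFRP2 had 575, 392, 375 and 653 in Control and 281, 229, 270 and 339 in DZNep libraries, and SFRP1 had 742, 1446, 1108 and 776 and 489, 685, 641 and 472. The groups of neither gene overlapped, and both had log2 fold changes of -0.86 (edgeR adjusted p = 0.0102 for SFRP2 and 0.0148 for SFRP1). NOTUM, an enzyme that removes the lipid from WNT ligands, was higher by a log2 fold change of 0.78 (SE 0.28, edgeR adjusted p = 0.0449). DKK2 and DKK3 did not pass (0.88 and -0.23), and DKK4 had no counts in Control libraries and at most 2 in a DZNep library. The DKK3 value is uncertain, as the gene shares exonic positions with USP47 on the opposite strand, which had up to 6900 counts in a library.

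Of the 8 target and feedback genes 2 were called lower and 0 higher (all genes: 13.5% and 10.6%). At an adjusted p under 0.05 alone, 1 further gene was lower and 1 was higher, and 4 did not pass. NKD2 (ENSG00000145506, chr5:1008802-1038943, plus strand), which binds dishevelled and dampens signalling, had 857, 503, 621 and 1009 normalized counts in Control and 38.1, 59.6, 29.4 and 51.7 in DZNep libraries. The groups were far apart, and the log2 fold change of -4.09 (SE 0.30, edgeR adjusted p = 1.29e-05) was the lowest of all members. LGR5 (ENSG00000139292, chr12:71439798-71586310, plus strand), an R-spondin receptor and stem cell marker, had 307, 536, 436 and 271 in Control and 116, 159, 166 and 72 in DZNep libraries. Replicates 2 and 3 were the highest in both groups, the groups did not overlap, and the log2 fold change was -1.62 (SE 0.30, edgeR adjusted p = 0.00202). LGR5 also shares exonic positions with a lncRNA on the opposite strand that has no row in the count table.

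AXIN2, a feedback scaffold and widely used readout of β-catenin activity, had 402, 443, 467 and 446 in Control and 477, 544, 605 and 567 in DZNep libraries. Every DZNep library was above every Control library (exact two-sided permutation p = 0.0286, the smallest that 4 against 4 allows), yet the log2 fold change of 0.29 (SE 0.14) did not pass the test across all genes (edgeR adjusted p = 0.119). RNF43, a ligase that removes frizzled receptors from the surface, went from 446 ± 95.2 to 790 ± 160 (SD, n = 4), with a log2 fold change of 0.80 (SE 0.20, edgeR adjusted p = 0.0104), while its relative ZNRF3 did not pass (log2 fold change -0.31, SE 0.17, edgeR adjusted p = 0.173). TCF7, a TCF/LEF factor, was lower (log2 fold change -0.62, SE 0.19, edgeR adjusted p = 0.0249). It shares exonic positions with SKP1 on the opposite strand, so the TCF7 value is uncertain. SKP1 had up to 6197 counts in a library and a log2 fold change of 0.61 (edgeR adjusted p = 0.0494). LEF1, the target gene with the highest mean level per length in both groups although NKD2 exceeded it in Control replicates 1 and 4, had 1548, 1443, 1551 and 1405 in Control and 1423, 1351, 1363 and 1416 in DZNep libraries, groups that overlap in a narrow range (log2 fold change -0.13, SE 0.12, edgeR adjusted p = 0.426). NKD1, the relative of NKD2, did not pass (log2 fold change 0.58, SE 0.22, edgeR adjusted p = 0.0577).

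None of the 4 transduction genes was called, and 3 had an adjusted p under 0.05 (all genes: 19.1% higher and 21.8% lower). CTNNB1, which encodes β-catenin, had 8406, 21396, 13227 and 6642 normalized counts in Control and 25998, 29988, 26744 and 17710 in DZNep libraries. Control replicates 1 and 4, with the higher mitochondrial shares, were the lowest, and Control replicate 2 lay above DZNep replicate 4. The log2 fold change was 0.99 (SE 0.34, edgeR adjusted p = 0.04), just under the fold threshold. With the replicate number as a block it was 1.11 (edgeR adjusted p = 2.94e-05) and called, and within the pairs the log2 ratio was 1.63, 0.49, 1.02 and 1.41 for numbers 1 to 4. In replicates 2 and 3 of each group alone it was 0.68 (edgeR adjusted p = 0.0135). Leaving out 1 library moved the value between 0.78 (without Control replicate 4) and 1.38 (without Control replicate 2), and the adjusted p of CTNNB1 rose to as much as 0.108 (without Control replicate 1).

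Only with the block did 7 of the 52 tested members pass the adjusted p, beside 3493 of all 19171 genes tested. LRP6 and LGR4 followed the same order of libraries as CTNNB1. LRP6 had pair ratios of 0.72, 0.42, 0.64 and 0.42 on the log2 scale and passed the adjusted p with the block (log2 fold change 0.52, edgeR adjusted p = 0.00111). LGR4 passed it as well (0.63, edgeR adjusted p = 0.00127), as did FZD7, WNT6, WNT7B, NKD1 and ZNRF3, not all of which followed that order, and only WNT7B was called among these. With the block, 5 members were called higher and 9 lower, against 11.7% and 14.3% of all genes. Within each group the mitochondrial share was higher in the libraries where CTNNB1, LRP6 and LGR4 were lower, and its part in their levels was not tested.

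**Figure D3:**
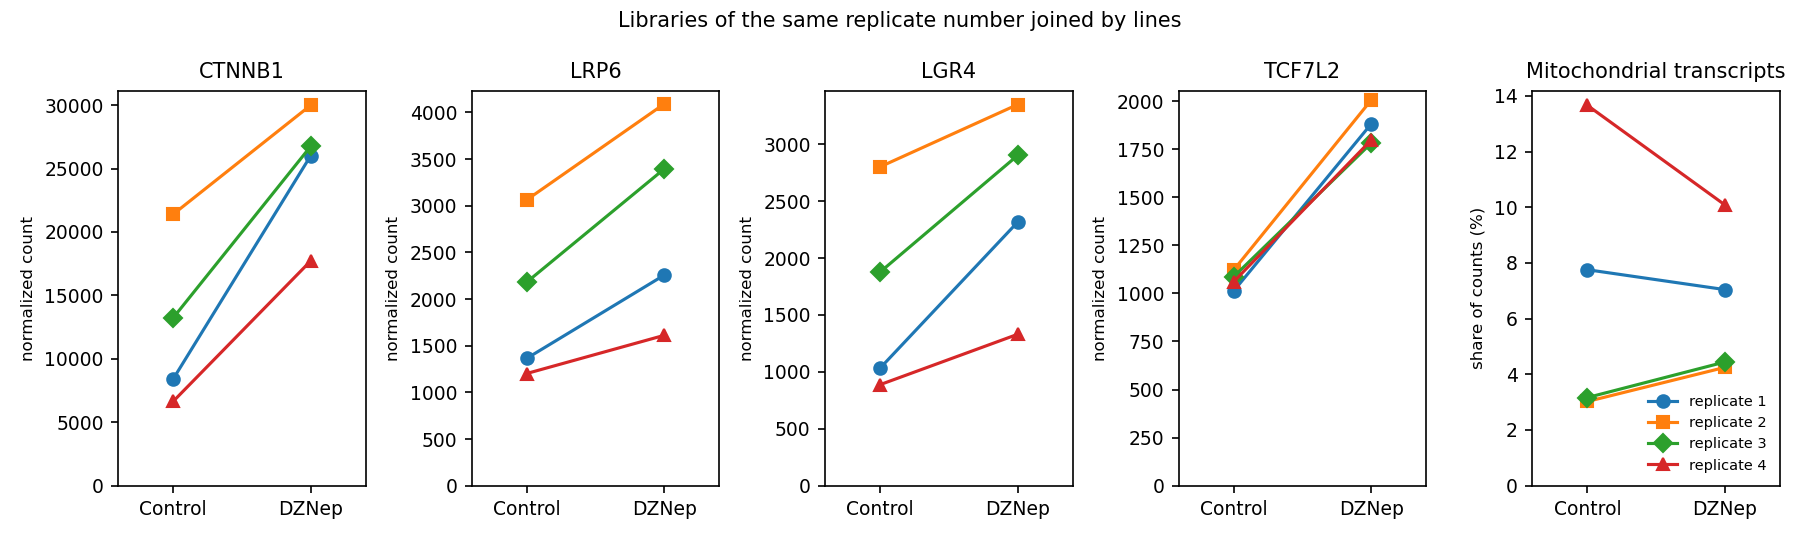
Normalized counts of CTNNB1, LRP6, LGR4 and TCF7L2 and the mitochondrial share of counts (percent), with a line joining the Control and the DZNep library of each replicate number. All 4 lines rise for each of the 4 genes. Replicates 1 and 4 lie lowest for CTNNB1, LRP6 and LGR4 in both groups, and the same replicates lie highest for the mitochondrial share in both groups.

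TCF7L2, a TCF/LEF factor that partners β-catenin, was higher and had a small spread, with 1013, 1122, 1087 and 1061 in Control and 1881, 2005, 1781 and 1797 in DZNep libraries. The groups were clearly apart (log2 fold change 0.77, SE 0.12, edgeR adjusted p = 0.000691). AXIN1, the constitutive scaffold of the destruction complex, was lower, from 2294 ± 344 to 1319 ± 188 (SD, n = 4; log2 fold change -0.83, SE 0.16, edgeR adjusted p = 0.0027), and TCF7L1, often a repressor, did not pass (-0.36). The secretion genes did not pass. WLS, which carries ligands to the cell surface, had 4213, 5764, 5393 and 4095 in Control and 4252, 4257, 4717 and 4014 in DZNep libraries (log2 fold change -0.20, SE 0.16, edgeR adjusted p = 0.33), and PORCN, which attaches their lipid, had a log2 fold change of 0.32 (SE 0.16, edgeR adjusted p = 0.147).

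Levels were also compared between genes, as TMM-scaled CPM per kb of annotated exon, and each gene was expressed as a share of the summed level of its role. The exon length is the union of all annotated exons, so genes with many rare exons are understated. The summed ligand level was 18.6 to 19.4 in Control and 14.6 to 18.8 in DZNep libraries, while its make-up differed. WNT5A made up 23.1%, 34.9%, 25.6% and 23.1% of it in Control and 58.0%, 64.3%, 61.6% and 51.0% in DZNep libraries. WNT5B went from 16.4% ± 3.00 to 4.36% ± 0.639 and WNT11 from 18.8% ± 3.20 to 6.49% ± 0.462 (SD, n = 4 each), while WNT10B was at 13.4% ± 1.00 and 14.6% ± 3.19. WNT5A therefore held the larger part of the summed ligand level in every DZNep library and in no Control library.

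The summed antagonist level overlapped between the groups, at 13.9 to 16.5 in Control and 12.6 to 15.1 in DZNep libraries. SFRP1 and SFRP2 went from 37.7% ± 11.3 and 43.9% ± 11.5 to 23.4% ± 4.05 and 27.2% ± 4.81 of it (SD, n = 4). DKK1 went from 5.62% ± 2.21 to 18.6% ± 2.02, FRZB from 0.644% ± 0.304 to 8.77% ± 1.17 and WIF1 from 3.68% ± 1.63 to 9.07% ± 2.76. The summed level of target genes was 28.0 to 30.4 in Control and 19.7 to 22.4 in DZNep libraries. NKD2 took 23.4% ± 6.41 of it in Control and 1.92% ± 0.548 in DZNep libraries, and RNF43 took 6.51% ± 1.59 and 15.6% ± 2.49. Shares within a role are bound to each other, and they are given as a description with no test.

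**Figure D4:**
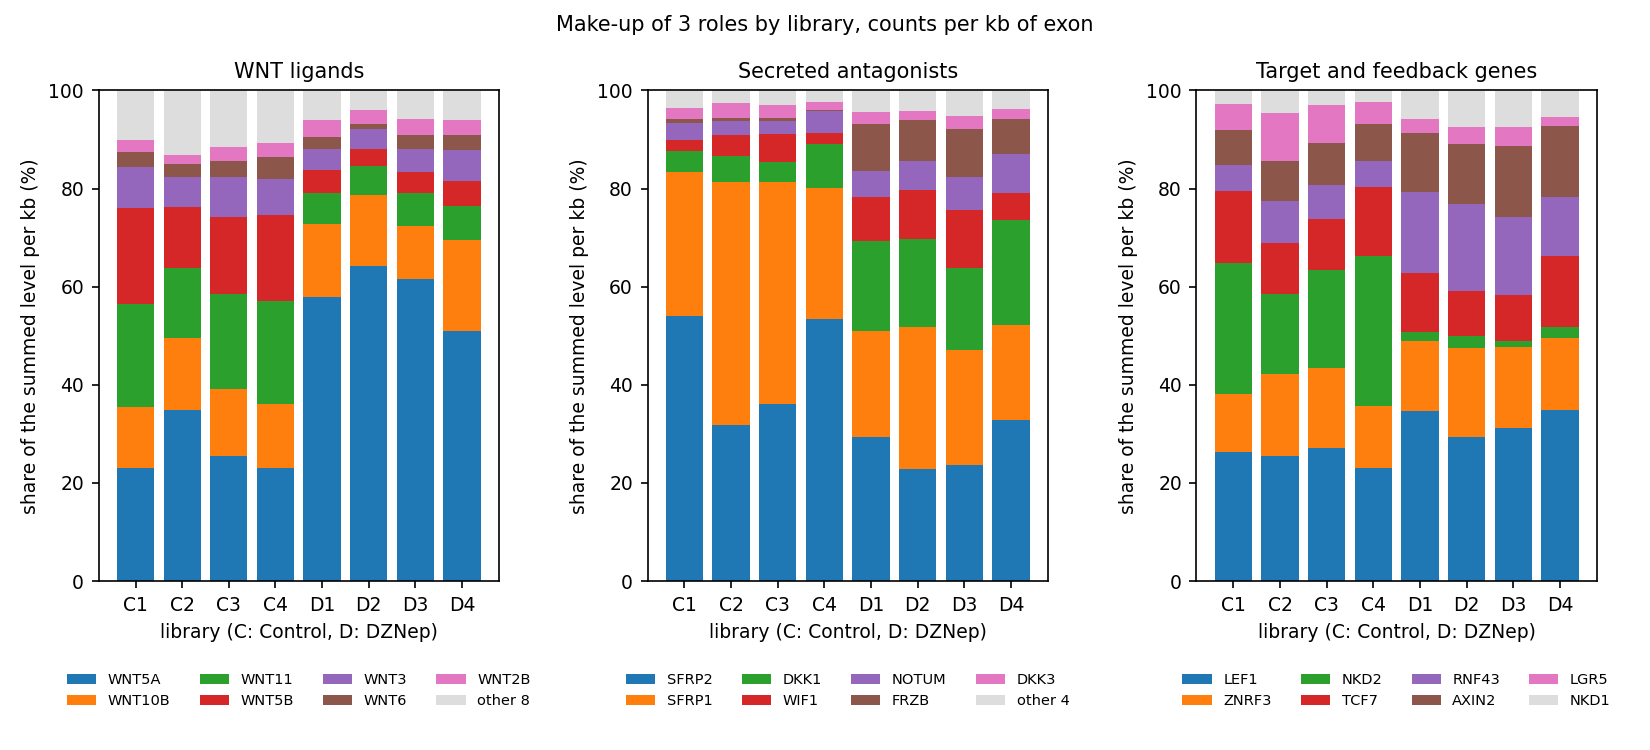
Share (percent) of each member in the summed CPM per kb of its role, stacked by library (C1 to C4 for Control, D1 to D4 for DZNep), for ligands, antagonists and target genes. WNT5A takes 23.1% to 34.9% of the ligand bars in Control and 51.0% to 64.3% in DZNep libraries, and NKD2 almost vanishes from the target bars.

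In 4 pairs of related genes, chosen after their values were seen and therefore given without a test, the order of the partners or the gap between them differed between the groups. LRP5 stood above LRP6 per length by 4.04, 2.11, 3.13 and 5.36 times in Control replicates 1 to 4, and the ratio was 0.250, 0.119, 0.206 and 0.302 in DZNep replicates 1 to 4. LRP5 thus changed from the main to the minor co-receptor transcript in every library, from 77.0% ± 7.02 to 17.7% ± 5.35 of both (SD, n = 4). NKD2 likewise was above NKD1 in every Control library (log2 ratio of NKD1 to NKD2 -2.89 ± 0.80) and below it in every DZNep library (1.80 ± 0.56). For these the exon union is 17359 bases in NKD1 and 2912 in NKD2, so the level at which they cross depends on the lengths. WNT5A was above WNT5B in both groups, with a log2 ratio of 0.70 ± 0.55 in Control and 3.76 ± 0.36 in DZNep libraries. LGR4 was above LGR5 in both, with log2 ratios of 1.71 ± 0.32 and 3.98 ± 0.12.

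**Figure D5:**
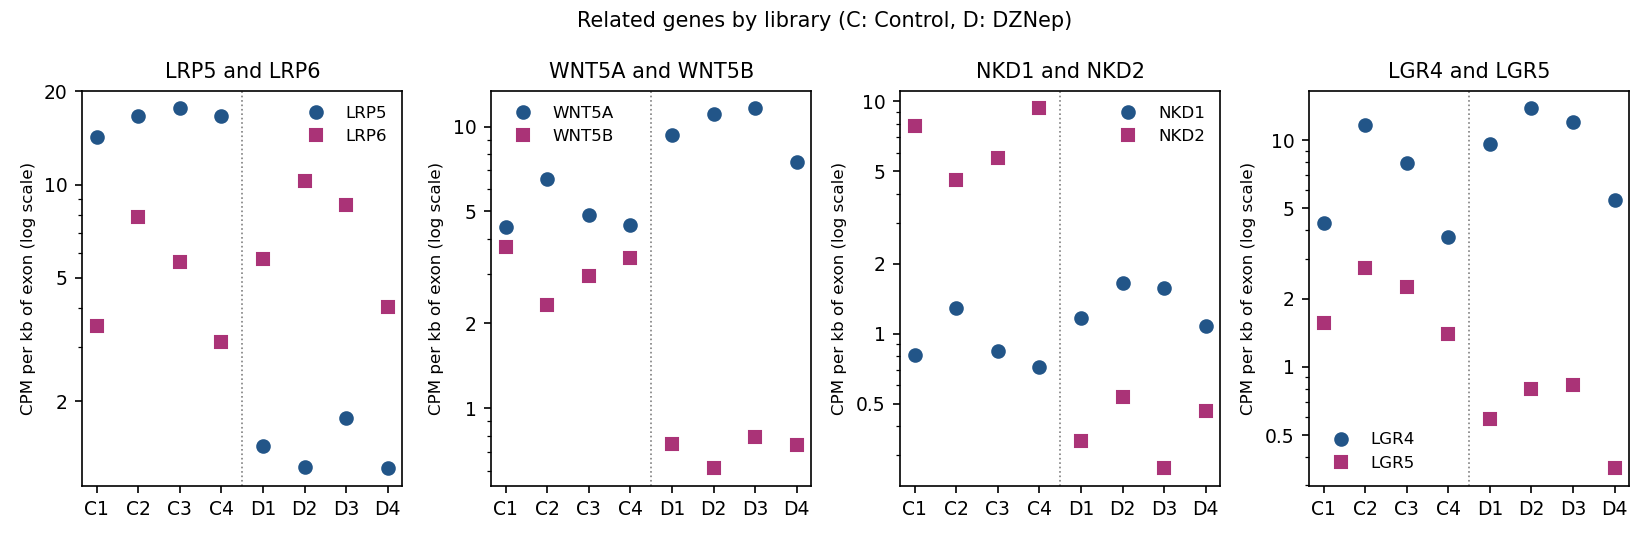
CPM per kb of exon (log axis) of 4 pairs of related genes in each library (C1 to C4 for Control, D1 to D4 for DZNep). LRP5 lies above LRP6 in all Control libraries and below it in all DZNep libraries, NKD2 and NKD1 change order in the same way, and the gaps of WNT5A over WNT5B and LGR4 over LGR5 are wider in DZNep libraries.

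A second list held 63 further genes of the pathway that are not members, from other ligands and R-spondins to nuclear cofactors and planar polarity genes. Of these 56 were tested, 10 were called higher and 8 lower, and 28 did not pass the adjusted p, beside 10.6% called higher and 13.5% lower over all genes. Their median log2 fold change was 0.18. The R-spondin RSPO4, which stabilizes frizzled receptors through LGR receptors, had 10.8, 8.93, 8.96 and 12.9 normalized counts in Control and 50.8, 45.1, 51 and 68.6 in DZNep libraries (log2 fold change 2.34, SE 0.29, edgeR adjusted p = 0.000199). RSPO2 rose as well (log2 fold change 1.25, SE 0.36), while LGR6, a receptor of the same kind as LGR4 and LGR5, fell from 75.1 ± 18.1 to 11 ± 7.53 (SD, n = 4; log2 fold change -2.81, SE 0.52, edgeR adjusted p = 0.00188). The further ligands WNT2 (log2 fold change 2.19, SE 0.37, edgeR adjusted p = 0.00114) and WNT16 (log2 fold change 1.26, SE 0.36, edgeR adjusted p = 0.0172) rose from low levels of 6.83 and 19.1 normalized counts on average.

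Of 7 tested inhibitors outside the member list 1 was called higher and 2 lower (all genes: 10.6% and 13.5%), and their median log2 fold change was -0.52. At an adjusted p under 0.05, 1 was higher and 3 were lower (all genes: 19.1% and 21.8%), with KREMEN1 lower but not called (log2 fold change -0.58, edgeR adjusted p = 0.0371). SOSTDC1, a secreted inhibitor that binds LRP5 and LRP6, rose from 115 ± 51.3 to 350 ± 88.4 (SD, n = 4; log2 fold change 1.57, SE 0.33, edgeR adjusted p = 0.00346), and APCDD1, a membrane inhibitor, fell from 174 ± 21.6 to 27 ± 7.74 (SD, n = 4; log2 fold change -2.70, SE 0.26, edgeR adjusted p = 4.8e-05). Among 10 nuclear cofactors 2 were called higher and 2 lower (all genes: 10.6% and 13.5%). At an adjusted p under 0.05, 5 were higher and 2 lower (all genes: 19.1% and 21.8%). CTNNBIP1, which blocks β-catenin binding to TCF factors, had 1650, 1539, 1604 and 1693 in Control and 223, 124, 259 and 190 in DZNep libraries, with a log2 fold change of -3.05 (SE 0.22, edgeR adjusted p = 1.18e-05), and CBY1, another β-catenin antagonist, had a log2 fold change of -1.35 (SE 0.29, edgeR adjusted p = 0.00407). The co-repressors TLE1, TLE3 and TLE4 were higher, by log2 fold changes of 1.05, 0.54 and 0.74 (edgeR adjusted p = 0.004, 0.0137 and 0.00354), and of these TLE1 was called. The coactivator BCL9L was called higher as well. Of 9 tested target genes outside the member list 1 was called higher and 0 lower (all genes: 10.6% and 13.5%). At an adjusted p under 0.05, 3 were higher and 1 lower, and the median log2 fold change was 0.06. The 1 called, SP5, rose from 8.58 ± 5.93 to 28.3 ± 6.16 (SD, n = 4; log2 fold change 1.71, SE 0.50, edgeR adjusted p = 0.0202). Its values rest on 2 to 15 raw counts in Control and 21 to 41 in DZNep libraries. The other genes called higher were CSNK1E and PRICKLE2, with log2 fold changes of 1.22 and 1.05. The other genes called lower were AMER1, CELSR1, INVS and the inhibitor TRABD2A, with -1.26 to -1.12.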

How the data were processed

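RNAseq covered 4 Control and 4 DZNep samples. Per the labels and methods, the authors used Trimmomatic 0.36 for trimming, STAR 2.5.2b for alignment to GRCh38 and featureCounts (Subread 1.5.2) for counting, and deposited raw counts of 57500 genes. The second deposited table is a signal, normalized counts of 19118 genes with over 80 counts in total, each equal to a raw count over a size factor of its library. The annotation release and strandedness are not given in the sources used here. Symbols, exon lengths and coordinates came from GENCODE v44 (GRCh38), with 56410 identifiers matched.

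The main test was edgeR 4.0.16 (R 4.3.3), quasi-likelihood with TMM normalization on genes passing filterByExpr, Benjamini-Hochberg adjusted. Each SE was derived from that test, as the absolute log2 fold change over the square root of its F statistic. In simulated counts of 18778 genes the main test recovered 194 of 200 changed genes with 6 false calls. The changed genes were not drawn from scarce genes, their folds were well past the threshold, and the simulated libraries were independent. The simulation therefore does not cover scarce members, folds near the threshold or differences shared by libraries of a replicate number. Alternatives were other normalizations and filters, the replicate block, glmTreat, DESeq2 1.42.0, limma 3.58.1 on log2(normalized count + 1 or 0.1), leaving out each library and, chosen after seeing the data, replicates 2 and 3 alone. No library repeated another (lowest chi-square per degree of freedom between libraries of a group, 26.9). Deviations from the group means over 15870 genes correlated between libraries of the same number, by 0.123, 0.590, 0.524 and 0.760 for numbers 1 to 4. The main test had no block, and the numbers were used as pairs only in the block fit and the pair ratios. Libraries of different numbers correlated too: Control replicate 1 with DZNep replicate 4 (0.654), 2 with 3 (0.486) and 3 with 2 (0.434). The pairing by number is therefore uncertain, most of all for number 1.

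Named with values were called members (up to 4 per role and direction), CTNNB1, AXIN2, LRP6, the most abundant member of each role per length, and up to 4 called genes per direction outside the list. The remaining genes were named to account for all members or after their values were seen. The members and lists were chosen with earlier results of these data known.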

Additional observations from a re-analysis of the deposited data

Results flagged for a closer look

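Of 104 sets of 4 libraries (each tested member in each group), 3 held a library far from the other libraries of its group by Dixon's criterion, while chance flags about 1 in 20, or 5.2 of 104. WNT11 was highest in DZNep replicate 3, with 116 normalized counts against 90.7 to 93.4 in the other DZNep libraries. FZD3 was lowest in DZNep replicate 1, with 1039 against 1173 to 1189. FZD8 was highest in DZNep replicate 2, with 1848 against 1255 to 1337.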

How the results depend on the processing

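Low counts limit WNT3A, WNT4, SFRP5 and FRZB, overlapping exons limit 17 members where an opposite-strand gene shares positions, and 4 libraries per group cannot give an exact permutation p below 0.0286. Members called higher (4) numbered 1 with glmTreat, 12 without a fold threshold and 3 to 7 when a library was left out (7 without Control replicate 2). Members called lower (8) numbered 5 with at least 10 counts in every library, 5 with glmTreat, 17 without a fold threshold and 6 to 9 when a library was left out. Over all genes, 942 were called higher and 1066 lower with glmTreat, against 2041 and 2589 in the main fit. With at least 10 counts in every library, 1141 of 15870 genes were called higher and 1950 lower. When a library was left out, 1936 to 2383 were called higher and 2322 to 2993 lower over all genes. With at least 10 counts in every library, 2 ligands were lower (of 4) and 2 antagonists higher (of 4), both ranging from 3 to 4 when a library was left out, and glmTreat left 1 antagonist. That filter removes genes that are low in 1 group. Further pathway genes called higher (10) numbered 5 with that filter, 2 with glmTreat, 16 without a fold threshold and 5 to 10 when a library was left out (6 without Control replicate 3 and 5 without DZNep replicate 3). Those called lower (8) numbered 3 with glmTreat and 7 to 8 when a library was left out. With replicates 2 and 3 of each group alone, 4 members were called higher and 8 lower (all genes: 2311 and 2346 of 19425). In that fit WNT4 (adjusted p = 0.108), SFRP4 (0.072) and SFRP5 (0.238) were not called. For single members 831 of the recomputed fold changes kept direction and call, 23 over 7 genes gained the call, 14 over 4 genes lost it and 6 over 2 genes changed sign. FZD6 went from 0.03 to -0.02, -0.14, -0.01 and -0.03 without Control replicate 1, Control replicate 4, DZNep replicate 2 and DZNep replicate 3 (from -0.14 to 0.17 over all 8 libraries left out in turn), and to -0.11 with replicates 2 and 3 alone, where RYK went from 0.13 to -0.04. CTNNB1 was called in 8 of 17 alternatives. With the replicate block, 5 members were called higher and 9 lower (all genes: 11.7% and 14.3%). The block added CTNNB1 and WNT7B and changed no other call among the members. The causes of these changes were not tested.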
